A study of Homo sapiens with 24 samples.

Results

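*ART4* and 9 genes close to it on the short arm of chromosome 12 were followed in PRO-seq data from T47D cells in which the TRPS1 protein can be degraded. *ART4* was chosen by its measured change: of the genes called in the model of all 3 clones that rose with dTAG-13 in each of the 12 pairs of libraries, it had the largest change. The neighbours *PLBD1*, *GUCY2C*, *H2AJ*, *WBP11*, *C12orf60*, *SMCO3*, *MGP*, *ERP27* and *ARHGDIB* were listed by their position. These are 10 of the 60605 genes in the count table, and 9 of the 10 passed the filter on low counts. *GUCY2C* did not pass it, with 1 to 11 counts per library.

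PRO-seq (precision run-on sequencing) reads the ends of RNA that polymerases are making, so the counts in a gene measure ongoing transcription. T47D is a luminal, estrogen receptor positive breast cancer cell line. Clones 28, 35 and 39, each a single clone made by inserting a dTAG degron into *TRPS1*, were grown in serum with insulin and given DMSO or 100 nM dTAG-13 in DMSO for 90 minutes. Each of the 6 groups has 4 replicates from different times of a day, and the DMSO and dTAG-13 libraries of a clone with the same replicate number form 1 of 12 pairs. All groups, DMSO included, carry the tagged protein as their only TRPS1 protein and have lost some of the genomic copies of *TRPS1*. All were selected with hygromycin after an earlier round with puromycin. dTAG-13 brings the tagged protein to a ubiquitin ligase and acts on the protein, so the transcription of *TRPS1* itself does not check the treatment.

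TRPS1 is a zinc finger protein of the GATA family that binds GATA motifs and is known mainly as a repressor of transcription in luminal breast cells. *ART4* encodes the carrier of the Dombrock blood group antigens, a member of the ecto-ADP-ribosyltransferase family that is anchored to the outside of the cell membrane. Of its neighbours, *MGP* encodes matrix Gla protein, a vitamin K dependent inhibitor of calcification, and *ARHGDIB* is best known from blood cells. *ERP27* encodes a non-catalytic member of the protein disulfide isomerase family, *WBP11* a splicing factor, *H2AJ* a variant of histone H2A, *GUCY2C* the guanylyl cyclase that is the receptor for guanylin, and *PLBD1* a phospholipase B-like protein. *SMCO3* encodes a predicted membrane protein with a coiled coil, and *C12orf60* is uncharacterised.

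In GENCODE release 44 on hg38, *ART4* (ENSG00000111339) occupies 14825569 to 14843526 of chromosome 12, minus strand. Measured from its start, the starts of *PLBD1*, *GUCY2C*, *H2AJ*, *WBP11*, *C12orf60* and *SMCO3* lie 276, 147, 69.1, 40.0, 39.9 and 29.3 kb away on the side of lower coordinates, and those of *MGP*, *ERP27* and *ARHGDIB* lie 42.3, 95.01 and 118 kb away on the other. *H2AJ* and *C12orf60* are on the plus strand and the rest on the minus strand. *C12orf60* spans 103 kb and runs antisense over *SMCO3*, *ART4* and *MGP*. The counts of these genes were separated by strand as far as the table shows: in pairs of nested genes the inner gene had more counts than the outer in 0.982% of 611 pairs on the same strand and in 16.0% of 332 pairs on opposite strands, and *MGP* together with *ART4* exceeded *C12orf60* in 24 of 24 libraries.

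The 250 bases before the start of *ART4* are shown with those of *PLBD1* and *H2AJ*, because TRPS1 binds GATA motifs and because these are the members whose RefSeq promoter entry begins at the GENCODE start. *ARHGDIB* matched entries only at other starts, and no sequence is shown for it or the rest. Sequences are from RefSeq (GRCh38.p14), read 5′ to 3′ in the direction of transcription, and capitals mark GATA motifs, meaning A or T, then GATA, then A or G, on either strand.
ART4, chr12:14843527-14843776, minus strand: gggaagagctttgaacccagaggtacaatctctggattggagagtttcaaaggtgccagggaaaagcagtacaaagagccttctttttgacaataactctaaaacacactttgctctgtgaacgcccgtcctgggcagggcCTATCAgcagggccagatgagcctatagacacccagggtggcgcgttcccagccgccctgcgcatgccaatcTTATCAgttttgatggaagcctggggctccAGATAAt
PLBD1, chr12:14567884-14568133, minus strand: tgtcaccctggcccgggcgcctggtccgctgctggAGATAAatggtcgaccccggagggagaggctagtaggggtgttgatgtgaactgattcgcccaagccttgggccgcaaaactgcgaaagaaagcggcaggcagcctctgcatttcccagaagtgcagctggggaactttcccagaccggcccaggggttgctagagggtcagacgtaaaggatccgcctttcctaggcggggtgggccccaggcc
H2AJ, chr12:14774155-14774404, plus strand: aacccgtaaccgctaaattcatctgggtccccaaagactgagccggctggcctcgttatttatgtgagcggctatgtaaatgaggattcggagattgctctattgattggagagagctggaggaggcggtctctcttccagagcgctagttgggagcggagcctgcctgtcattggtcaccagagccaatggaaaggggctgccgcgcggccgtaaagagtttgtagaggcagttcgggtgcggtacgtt
The *ART4* sequence held 3 GATA motifs, beginning 109, 37 and 7 bases before the start, the first and second of them on the opposite strand. *PLBD1* held 1, beginning 215 bases before the start, and *H2AJ* held none. Of 35116 promoter entries of this length, 22.3% held at least 1 such motif and 0.94% held 3 or more. The estrogen receptor half-site AGGTCA, held by 12.1% of entries, was in none of the 3 sequences. It was in overlapping *ARHGDIB* entries, 133 bases before the start at 14951151 and 178 bases before that at 14951106. The latter entry also held a GATA motif, 43 bases before its start. The *ARHGDIB* entry with its start at 14948896 held neither. A match to these letters is a description of the sequence, and binding was not analysed here.

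*ART4* was higher with dTAG-13 in every pair of libraries and in each clone. Counts are given as CPM, counts relative to the size of the library after TMM scaling. In Clone 28, *ART4* stood at 11.7, 7.75, 7.32 and 5.89 CPM in DMSO replicates 1 to 4 and at 17.2, 13.3, 15.8 and 10.0 CPM in dTAG-13. In Clone 35, it stood at 11.4, 10.7, 8.97 and 8.16 CPM in DMSO and at 18.3, 14.2, 15.8 and 16.2 CPM in dTAG-13. In Clone 39, it stood at 16.6, 13.6, 10.4 and 15.4 CPM in DMSO and at 21.4, 16.7, 17.5 and 18.5 CPM in dTAG-13. Every dTAG-13 library was above every DMSO library in Clones 35 and 39, as for 1.13% and 1.12% of all genes. In Clone 39 the lowest dTAG-13 library stood at 16.73 CPM and the highest DMSO library at 16.56 CPM. In Clone 28 the highest DMSO library exceeded the lowest dTAG-13 library. *ART4* was chosen among genes that rose in every pair, so this separation is a description only.

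The group means of *ART4* in CPM rose from 8.16 ± 2.48 (SD, n = 4) in Clone 28 DMSO through 9.81 ± 1.51 in Clone 35 DMSO and 14.0 ± 2.70 in Clone 39 DMSO to 14.1 ± 3.15 in Clone 28 dTAG-13, 16.1 ± 1.69 in Clone 35 dTAG-13 and 18.5 ± 2.06 in Clone 39 dTAG-13. Neighbours in this order overlapped in their libraries, and the DMSO level of Clone 39 was close to the dTAG-13 level of Clone 28. With the 3 clones together, the log2 fold change of *ART4* was 0.64 (standard error 0.10), with 0.80 (0.18) in Clone 28, 0.74 (0.17) in Clone 35 and 0.39 (0.17) in Clone 39. These values chose the gene and are given with no test. Of the 36 genes that passed the threshold and rose in 12 of 12 pairs, *ART4* stood first and *CPHL1P*, with a log2 fold change of 0.49, stood next. Among all 80 genes that passed and were higher, 2 had larger changes than *ART4*. Its log2 fold change lay between 0.59 and 0.68 when any single library was left out. That range comes from the libraries that chose the gene, so it is no check on the choice.

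**Figure D1:**
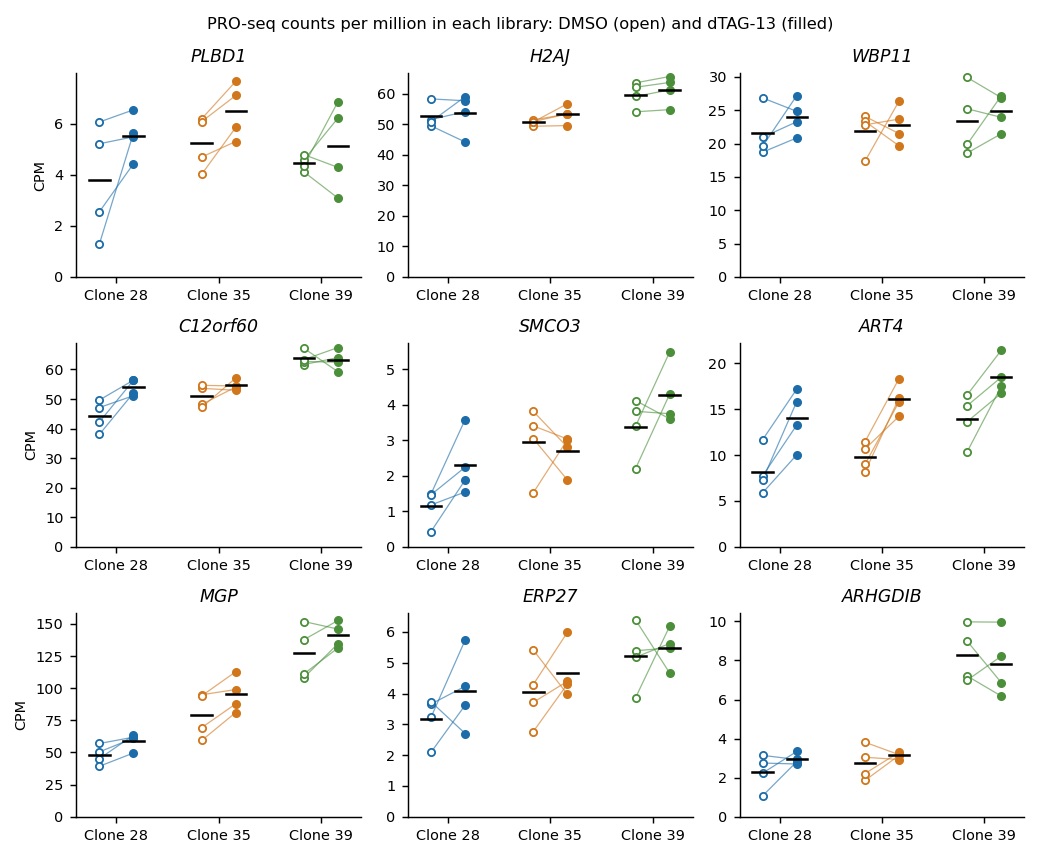
CPM (y axis, starting at 0) of the 9 tested genes in each library of Clones 28, 35 and 39, in order along the chromosome. Open points are DMSO, filled points dTAG-13, thin lines join libraries with the same replicate number, and black bars are group means; *ART4* is higher with dTAG-13 in 12 of 12 pairs, and *MGP* in 11.

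The tested neighbours also stood higher with dTAG-13 on average. With the 3 clones together, 8 of the 8 tested neighbours had a log2 fold change above 0, compared with 49.0% of all 22326 genes tested, and their median was 0.16 against -0.0018 over all genes. At the threshold of 0.1 on the adjusted p-value, 0 of the 8 passed (quasi-likelihood test in edgeR after Benjamini-Hochberg adjustment), where 0.551% of all genes did. DESeq2 likewise called 0 of 8, but it gave no adjusted p-value for *PLBD1* and *SMCO3*, so these could not be called by it. At an unadjusted p below 0.05 there were 3 of 8, *C12orf60*, *MGP* and *PLBD1*, compared with 3.13% of all genes below it and higher with dTAG-13. The models above did not use the pairing of the libraries. With a term for each pair in edgeR (the replicate block), 1 of the 8 passed, *MGP*, where 2.33% of all genes did.

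*MGP*, the member with the most counts, was higher in 11 of 12 pairs. In Clone 28, it stood at 50.5, 57.0, 45.2 and 39.3 CPM in DMSO replicates 1 to 4 and at 61.2, 61.9, 63.5 and 49.6 CPM in dTAG-13. In Clone 35, it stood at 94.9, 94.0, 69.3 and 59.3 CPM in DMSO and at 99.0, 113, 87.8 and 81.1 CPM in dTAG-13. In Clone 39, it stood at 152, 138, 108 and 111 CPM in DMSO and at 146, 153, 135 and 131 CPM in dTAG-13. The groups overlapped in each clone, and replicate 1 of Clone 39 was the pair in which dTAG-13 was lower. The log2 fold change of *MGP* was 0.23 (standard error 0.086, 95% interval 0.054 to 0.41), and it did not pass the threshold (Benjamini-Hochberg adjusted p = 0.531, quasi-likelihood test in edgeR). With the pairs as a replicate block, the log2 fold change was 0.24 (standard error 0.037) and *MGP* passed (adjusted p = 3.54e-05 from the same test), where 2.33% of all genes passed with the block. It was the single neighbour of the 8 to do so.

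*C12orf60*, which runs antisense over *ART4*, had its largest estimate in Clone 28. There it stood at 38.0, 49.6, 47.1 and 42.2 CPM in DMSO replicates 1 to 4 and at 52.1, 56.4, 51.1 and 56.3 CPM in dTAG-13, and the groups did not overlap. In Clone 39, it ranged from 61.7 to 67.2 CPM in DMSO and from 59.2 to 67.4 CPM in dTAG-13, and the groups overlapped throughout. With the 3 clones together its log2 fold change was 0.12 (standard error 0.046, 95% interval 0.031 to 0.22), and it did not pass (Benjamini-Hochberg adjusted p = 0.495, quasi-likelihood test in edgeR).

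*PLBD1* and *SMCO3* had larger estimates and wider intervals, on few counts. *PLBD1*, with 6 to 56 counts per library, was higher in 10 of 12 pairs and had a log2 fold change of 0.35 (95% interval 0.032 to 0.66, Benjamini-Hochberg adjusted p = 0.722, quasi-likelihood test in edgeR). *SMCO3*, with 2 to 29 counts per library, was higher in 7 of 12 pairs and had a log2 fold change of 0.34 (95% interval -0.042 to 0.71, adjusted p = 0.883 from the same test). Its 4 libraries of Clone 28 in DMSO had 2 to 7 counts, so it passed the filter through the other groups.

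The other tested neighbours were closer to 0 or no better determined. The log2 fold change of *ERP27* was 0.19 (95% interval -0.080 to 0.47) and that of *ARHGDIB* was 0.12 (-0.15 to 0.40), each with at most 50 counts in a library. *WBP11* had 0.10 (-0.055 to 0.26) and *H2AJ* had 0.053 (-0.039 to 0.14). For *GUCY2C*, the 4 libraries of each group summed to 14 to 27 counts, and no change was detectable at this depth.

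Clone by clone, no tested neighbour reached the threshold without the replicate block. In Clone 28, 8 of 8 tested neighbours had a log2 fold change above 0 (50.1% of all genes did), in Clone 35, 7 of 8 (49.8%), and in Clone 39, 6 of 8 (48.9%). *PLBD1*, *H2AJ*, *WBP11*, *MGP* and *ERP27* were above 0 in each of the 3 clones, 5 of 8 compared with 15.0% of all genes. The adjusted p-value was under the threshold for 0 of 8 in each clone (quasi-likelihood test in edgeR after Benjamini-Hochberg adjustment). The shares of all genes that passed were 0.0537% in Clone 28, 0% in Clone 35 and 0% in Clone 39. At an unadjusted p below 0.05 there were 2 neighbours in Clone 28, *C12orf60* and *SMCO3*, and 0 in Clones 35 and 39. The shares of all genes below it were 4.83%, 2.89% and 3.38% in Clones 28, 35 and 39. For *SMCO3* the DMSO libraries of Clone 28 held 2 to 7 counts. DESeq2 called 0 of 8 in each clone.

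With the replicate block, *MGP* and *C12orf60* passed in Clone 28 (log2 fold changes 0.30 and 0.28, Benjamini-Hochberg adjusted p = 0.0194 and 0.0406, quasi-likelihood test in edgeR), where 1.18% of all genes passed. In Clone 35, *MGP* passed with the block (log2 fold change 0.28, adjusted p = 0.0604 from the same test), where 0.0941% of all genes did. In Clone 39, *MGP* had a log2 fold change of 0.16 with the block and did not pass (adjusted p = 0.719 from the same test).

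Complete separation of the groups was read in each clone. In Clone 28, every dTAG-13 library was above every DMSO library for *C12orf60* and *SMCO3*, 2 of 8 tested neighbours compared with 1.55% of all genes. *SMCO3* stood there at 1.49, 1.47, 0.430 and 1.18 CPM in DMSO and at 3.58, 2.24, 1.88 and 1.54 CPM in dTAG-13. The DMSO libraries had 2 to 7 counts of it and the lowest dTAG-13 library 8. Because *SMCO3* passed the filter through the other groups, its separation in Clone 28 rests on very few counts. In Clones 35 and 39, 0 of 8 neighbours were so separated, where 1.13% and 1.12% of all genes were. In Clone 35, *SMCO3* was lower with dTAG-13 in 3 of 4 pairs and had a log2 fold change of -0.060 (95% interval -0.64 to 0.52).

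**Figure D2:**
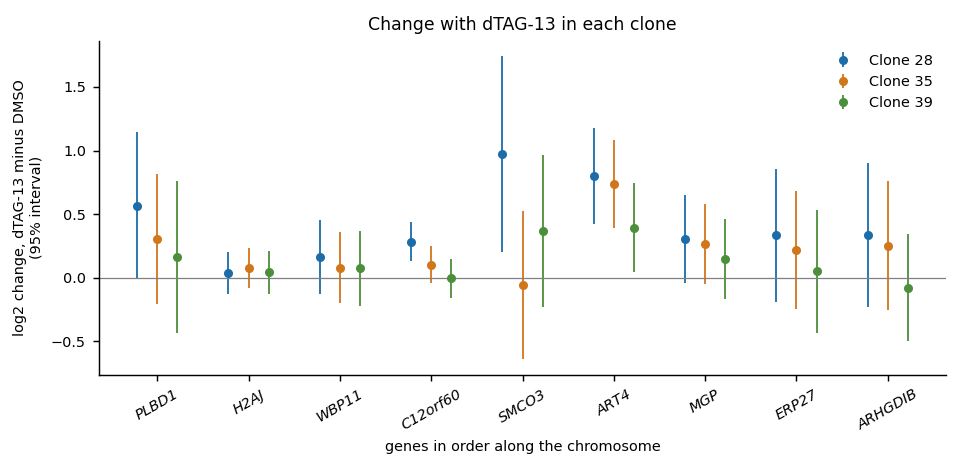
Log2 change with dTAG-13 (y axis, points with 95% intervals) of the 9 tested genes in order along the chromosome, separately for Clones 28, 35 and 39. The estimates for *ART4* are 0.80, 0.74 and 0.39, and the widest intervals are those of *SMCO3*.

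The changes were largest in Clone 28 for 8 of the 9 tested members, the exception being *H2AJ*, but a difference between the clones was not established. The 8 include *ART4*, which was chosen by its change, and the share of all genes with this pattern was not counted. The range of the clone estimates was 0.41 on the log2 scale for *ART4* and 1.03 for *SMCO3*. In the test of the difference between clones, 0 of 9 members passed, as did 0 of 22326 genes (0%), by the quasi-likelihood test in edgeR after Benjamini-Hochberg adjustment. DESeq2 called 0 of 9 members and 0 genes. At an unadjusted p below 0.05 there was 1 member, *C12orf60*, and 407 genes in all, or 1.82%.

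The direction of the neighbours was shared by the other genes around *ART4*. The table holds 38 genes that start within 1 Mb of its start, and besides *ART4* 20 of them were tested, the 8 tested neighbours included. All 20 had a log2 fold change above 0 with the 3 clones together, from 0.053 to 0.35 with a median of 0.15, and the count was 20 of 20 with RLE size factors, with library totals only, without the filter and in DESeq2. It was 19 of 20 when any single clone was left out. By clone, 18 of 20 were above 0 in Clone 28 (50.1% of all genes), 17 in Clone 35 (49.8%) and 14 in Clone 39 (48.9%). In each of the 3 clones, 11 of 20 were above 0, compared with 15.0% of all genes. Of the 12 that are not listed members, 12 were above 0 with the 3 clones together, where 49.0% of all genes were. Of these 12, 6 were above 0 in each of the 3 clones. These genes share libraries, and some overlap each other, so they are not independent.

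Without the replicate block, none of the 20 passed the threshold (quasi-likelihood test in edgeR after Benjamini-Hochberg adjustment). At an unadjusted p below 0.05 there were 5, where 3.13% of all genes were below it and higher. The 3 with the lowest p were *C12orf60*, *MGP* and *PLBD1*. DESeq2 called 0 of 20, but *PLBD1* and *SMCO3* among them had no adjusted p-value there. With the replicate block 2 of 20 passed, compared with 2.33% of all genes. These were *MGP* and *RERG*, an estrogen-regulated Ras-like gene whose start lies 505 kb from that of *ART4* and which was named after its values were seen. Its log2 fold change was 0.17 with the block (adjusted p = 0.0308, quasi-likelihood test in edgeR) and 0.16 without it (adjusted p = 0.745 from the same test). Within Clone 28, 3 of the 20 passed with the block, *MGP* and *C12orf60* among them, where 1.18% of all genes did. In Clone 35 it was 1 of 20, *MGP* (0.0941% of all genes), and in Clone 39 it was 0 of 20. The gene whose start is nearest to that of *ART4*, ENSG00000256339, is a plus-strand non-coding RNA that overlaps that start. It had 9 to 38 counts per library, lies within *C12orf60* on the same strand, and was higher in 6 of 12 pairs. Its estimate of 0.24 on the log2 scale (standard error 0.16) did not pass (adjusted p = 0.943, quasi-likelihood test in edgeR). By clone, the estimates for ENSG00000256339 were 0.85 (standard error 0.27) in Clone 28, 0.0078 (0.25) in Clone 35 and -0.071 (0.27) in Clone 39, and 0 of these passed. The changes did not fall off evenly with distance from *ART4*.

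**Figure D3:**
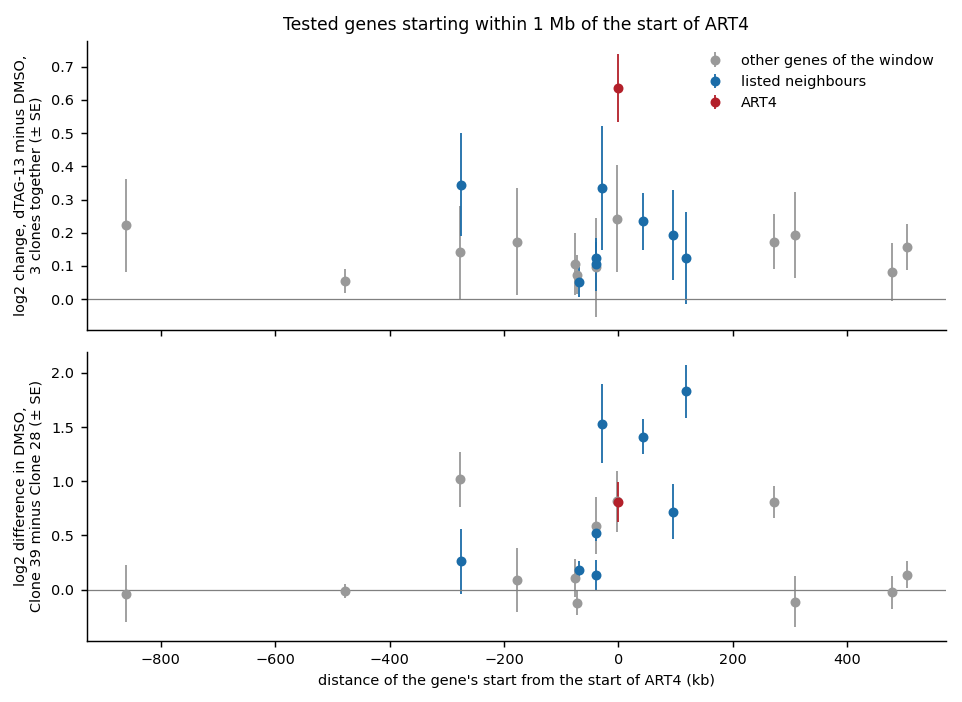
The 21 tested genes that start within 1 Mb of the start of *ART4*, by distance from it (x axis, kb). The upper panel shows the log2 change with dTAG-13 for the 3 clones together and the lower panel the log2 difference between Clone 39 and Clone 28 in DMSO, both with standard errors; all 21 changes in the upper panel are above 0, with *ART4* highest.

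The DMSO libraries entered the change that chose *ART4*, but the differences between clones in DMSO were not used for that choice. In DMSO alone, the members differed between the clones. Here *ART4* and 6 of the 8 tested neighbours had their means in the order Clone 28, Clone 35, Clone 39, an order held by 22.5% of all genes, and none had the opposite order, held by 19.7%. The exceptions were *PLBD1*, highest in Clone 35, and *H2AJ*, lowest in Clone 35. The test of the 3 clones' DMSO groups called 7 of 9 members, compared with 28.5% of all genes (quasi-likelihood test in edgeR after Benjamini-Hochberg adjustment). *WBP11* and *PLBD1* did not pass.

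*ARHGDIB* differed most. It stood at 2.24, 3.14, 1.08 and 2.75 CPM in the DMSO libraries of Clone 28, at 3.81, 3.04, 1.86 and 2.21 CPM in Clone 35, and at 9.98, 7.21, 8.99 and 6.99 CPM in Clone 39. Every Clone 39 library was above all of the others, while Clones 28 and 35 overlapped. The share of all genes separated in this way between clones was not counted. Clone 39 exceeded Clone 28 by 1.83 on the log2 scale (standard error 0.24, Benjamini-Hochberg adjusted p = 4.85e-07, quasi-likelihood test in edgeR).

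*MGP* separated all 3 clones. Its DMSO means were 48.0 ± 7.54 CPM (SD, n = 4) in Clone 28, 79.4 ± 17.9 in Clone 35 and 127 ± 21.1 in Clone 39. Its libraries did not overlap between any of them, and the share of all genes so separated was not counted. Clone 39 exceeded Clone 28 by 1.41 on the log2 scale (standard error 0.16, Benjamini-Hochberg adjusted p = 1.14e-06, quasi-likelihood test in edgeR). The difference in *MGP* between these clones was several times its change with dTAG-13.

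For *ART4*, Clone 39 exceeded Clone 28 by 0.81 on the log2 scale (standard error 0.19, Benjamini-Hochberg adjusted p = 0.00151, quasi-likelihood test in edgeR) and Clone 35 by 0.54 (standard error 0.18, adjusted p = 0.0288 from the same test). The difference of 0.27 between Clones 35 and 28 did not pass (95% interval -0.12 to 0.65). *SMCO3* was 1.53 higher in Clone 39 than in Clone 28, *ERP27* 0.72 and *C12orf60* 0.52 on the log2 scale. Between pairs of clones, 6 of 9 members passed for Clone 39 against Clone 28 (26.7% of all genes), 5 of 9 for Clone 39 against Clone 35 (22.6%), and 2 of 9, *SMCO3* and *MGP*, for Clone 35 against Clone 28 (5.25%). *SMCO3* is counted in the 7 calls, in the 6 and in the 2, and it passed the filter through the groups where it is higher, so its call as lower in Clone 28 rests partly on that filter. *H2AJ* and *ERP27* were the weakest of the 7 calls (adjusted p = 0.0672 and 0.0915, quasi-likelihood test in edgeR), and each lost its call without some single libraries. *H2AJ* also lost it with library totals only and without the filter (adjusted p up to 0.181, edgeR), and *ERP27* without the filter (0.201, edgeR) and in DESeq2 (adjusted p = 0.155). In these settings 6 members passed with library totals only, 5 without the filter and 6 in DESeq2. *H2AJ* lost the call without Clone 35 replicate 1 or without Clone 39 replicate 2, 3 or 4 (adjusted p up to 0.216, edgeR). *ERP27* lost it without Clone 28 replicate 1 or 2, Clone 35 replicate 3 or Clone 39 replicate 1, 3 or 4 (adjusted p up to 0.268, edgeR).

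Of the 20 tested genes around *ART4*, 10 differed between the clones in DMSO. Among the 12 that are not listed members it was 4, or 33.3%, close to the share over all genes. Each clone is 1 line, so a difference between clones cannot be told apart from what arose when that clone was made.

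Levels of different genes were compared per kb of their span. In DMSO, *MGP* and *H2AJ* were highest, at 17.0 and 15.1 CPM per kb, followed by *WBP11* at 1.18 and *ART4* at 0.593. *C12orf60*, at 0.514 CPM per kb over its long span, was close to *ART4*, and *SMCO3*, *ARHGDIB*, *ERP27* and *PLBD1* lay between 0.261 and 0.0701. *GUCY2C* was lowest at 0.0114 CPM per kb. In these bulk libraries, fewer transcribing cells and less transcription per cell cannot be told apart.

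The replicate number also went with the level of some members, as it did for many other genes. The labels do not say that a number stands for the same collection time in every clone. Over the 12 DMSO libraries, 4 of 9 members differed between replicate numbers, compared with 30.3% of all genes (quasi-likelihood test in edgeR after Benjamini-Hochberg adjustment). These were *MGP* (adjusted p = 6.50e-10), *WBP11* (0.00339), *ART4* (0.0649) and *PLBD1* (0.0902), by the same test. The mean DMSO level of *MGP* over the 3 clones was 99.1, 96.2, 74.2 and 69.9 CPM in replicates 1, 2, 3 and 4, and that of *ART4* was 13.2, 10.7, 8.88 and 9.81 CPM. *MGP* and *ART4* were both highest in replicate 1. *ART4* lost the call without replicate 1 of any clone, without Clone 35 replicate 4 or without Clone 39 replicate 3 (adjusted p up to 0.331, edgeR). *PLBD1* lost it without any single library of Clones 28 and 35 (adjusted p up to 0.377, edgeR). In DESeq2, 1 of the 9 members passed, *MGP*. The count of 4 of 9 was therefore not read as particular to the members.

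Whether a neighbour rose more in the pairs where *ART4* rose more was asked after each clone's mean change was taken off, so that clone differences could not enter. Over the 12 pairs, *PLBD1* had the highest Pearson's r, 0.68 (exact permutation within clones, two-sided, p = 0.0159, adjusted over 8 neighbours 0.127; Spearman's coefficient 0.58, p = 0.0687). Without the 2 pairs farthest from the median of *ART4*, which also narrows the range of *ART4*, r was 0.34. The largest *PLBD1* change, in Clone 28 replicate 3, set 36 counts in dTAG-13 against 6 in DMSO. *MGP* had r = 0.55 (exact permutation p = 0.103, adjusted 0.326; Spearman's coefficient 0.53, p = 0.115), and 0.28 without those 2 pairs. *WBP11* had r = 0.53 (exact permutation p = 0.122, adjusted 0.326; Spearman's coefficient 0.65, p = 0.0458), and 0.50 without those 2 pairs. *C12orf60* had r = -0.065 (exact permutation p = 0.855; Spearman's coefficient -0.13, p = 0.703). The other 4 had r between 0.17 and 0.37, and 0 of 8 passed the threshold after adjustment over the 8. *PLBD1* did pass when the pair of Clone 35 replicate 4 was left out (r = 0.80, exact permutation, adjusted p = 0.0139). With each replicate number's mean also taken off, r was 0.27 for *PLBD1*, -0.037 for *MGP* and -0.22 for *WBP11*, so that the sign turned for *MGP* and *WBP11*.

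**Figure D4:**
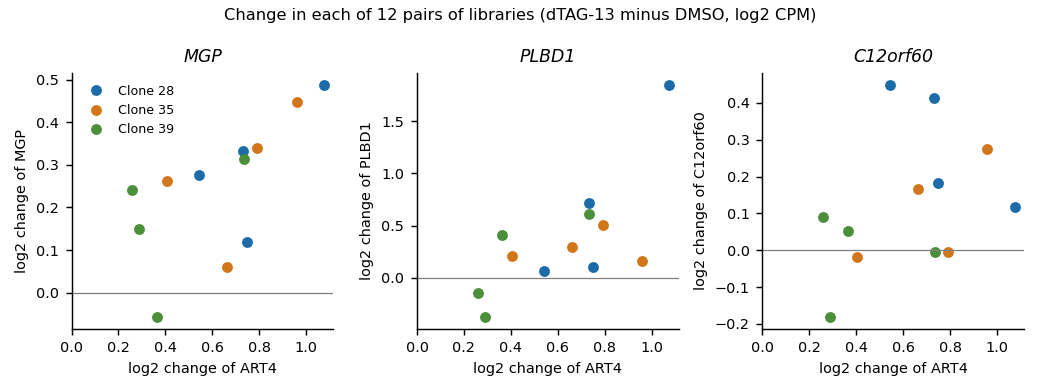
Log2 change with dTAG-13 of *MGP*, *PLBD1* and *C12orf60* (y axes) against that of *ART4* (x axes) in each of the 12 pairs, coloured by clone. *PLBD1* has 1 pair far above the rest, from Clone 28, at 1.85.

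Across all 24 libraries, in which clone, treatment and replicate number all vary, the neighbours differed widely in how closely they followed *ART4*. Of 22319 genes with a mean of at least 1 CPM, ranked by Pearson's r with *ART4* in log2 CPM, *MGP* stood at rank 62 (r = 0.71), *SMCO3* at 101 (0.69), *ERP27* at 115 (0.68), *C12orf60* at 354 (0.60) and *ARHGDIB* at 408 (0.59). *PLBD1*, *WBP11* and *H2AJ* stood at 977, 1797 and 5877. The 5 genes most like *ART4* were *LINC00536* on chromosome 8 (r = 0.89), *RHOBTB3* on chromosome 5 (0.82), ENSG00000288073 on chromosome 4 (0.82), ENSG00000241720 on chromosome 1 (0.81) and *FTO* on chromosome 16 (0.81). None of the 5 is on chromosome 12. These are descriptions over libraries that share clones and collection times.

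Genes related to the members by function did not pass the test. Of 31 relatives, 20 were tested and 0 passed in either direction with the 3 clones together, with or without the replicate block (quasi-likelihood test in edgeR after Benjamini-Hochberg adjustment). At an unadjusted p below 0.05 there were 0, and DESeq2 also called 0. Their median log2 fold change was 0.0031, with 11 of 20 above 0. Among the ecto-ADP-ribosyltransferases, *ART1* had 0 to 4 counts per library, *ART5* 0 to 8 and *ART3* 3 to 14. *GGCX* and *VKORC1*, which carry out and sustain the vitamin K dependent carboxylation of matrix Gla protein, had log2 fold changes of -0.063 and -0.048, and *ARHGDIA*, the widely expressed relative of *ARHGDIB*, had -0.082. The ligands of the *GUCY2C* product, *GUCA2A* and *GUCA2B*, had 0 to 2 counts per library.

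The libraries held 3226718 to 9575803 counts, with a median of 5042122. Of 8 luminal markers 7 stood above 75 CPM in every library, the exception being *TFF1* at 0.193 to 6.23 CPM, and *KRT19* passed as lower with dTAG-13 (log2 fold change -0.13, Benjamini-Hochberg adjusted p = 0.0346, quasi-likelihood test in edgeR).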

How the data were processed

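PRO-seq was performed in 24 libraries of 3 dTAG-TRPS1 T47D clones. The authors trimmed adapters (cutadapt 1.8.1 per the labels), removed duplicates by molecular identifiers, removed ribosomal reads, aligned with Bowtie2 2.4.4 to hg38 and counted reads in genes with bedtools. SAMtools 1.9 is also named in the submitters' processing notes. The annotation and strand setting of the counting are not given in the sources used here. The authors deposited raw counts, with 1 column per library and 1 row per gene. Names and places of 60463 of the 60605 genes came from GENCODE release 44.

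R 4.3.3 and edgeR 4.0.16 were used. The filter on low counts was filterByExpr on the 6 groups (minimum count 10, 22326 genes left) or on the DMSO groups for the replicate number (21254 genes). Libraries were scaled by TMM, and robust quasi-likelihood tests were adjusted by Benjamini-Hochberg over all genes tested, with a threshold of 0.1. The model for the 3 clones together had clone and treatment, and those within clones, between clones and in DMSO had the 6 groups. Log2 CPM used a prior count of 2, and the window was 1 Mb. Samples were grouped by clone and treatment from the labels. The members, lists and tests were chosen with earlier results of these data known. All listed members are named, the 3 genes of the window with the lowest p, the 5 genes most correlated with *ART4*, and relatives only as counts, apart from 8 relatives, *RERG*, *KRT19* and the markers named after their values were seen. Models were tested on simulated counts.

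Libraries of a clone with the same replicate number were treated and collected together per the labels, and they deviated together from their group means (correlation across genes 0.0926 to 0.318, over 0.1 in 11 of 12 pairs), so the number was used as a replicate block. It is not stated whether replicates were separate cultures beyond these collection times. Replicates differed by more than counting error, with a chi-square of at least 1.66 per degree of freedom. Alternatives were library totals only, RLE size factors, leaving out the filter, DESeq2 1.42.0, the block, a prior count of 0.5, and each library, pair or clone left out. Signal tracks were not used here. Some marker lists are not reported here.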

Additional observations from a re-analysis of the deposited data

Results flagged for a closer look

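Among 54 groups of 4 libraries (9 tested genes in 6 groups), 3 had a library standing far from the others on the log2 CPM scale, and chance gives about 1 in 20. *WBP11* was lowest in Clone 35 DMSO replicate 3, at 17.3 CPM, with a gap of 0.835 of the range of its group. *SMCO3* was lowest in Clone 35 dTAG-13 replicate 2, at 1.88 CPM, with a gap of 0.831 of the range. *MGP* was lowest in Clone 28 dTAG-13 replicate 4, at 49.6 CPM, with a gap of 0.847 of the range.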

How the results depend on the processing

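With the replicate block, in which each pair of libraries has its own term, 521 genes passed with the 3 clones together in place of 123, and 1 neighbour, *MGP*, in place of 0. The count was 197 genes without the filter, 1 without Clone 28, 41 without Clone 35 and 47 without Clone 39. With the block, it was 175 genes without Clone 28, 360 without Clone 35 and 377 without Clone 39, and 1, 1 and 2 neighbours passed without Clones 28, 35 and 39, *C12orf60* being the second. In Clone 28, 12 genes passed in the main model, 7 with RLE size factors, 22 with library totals only, 87 without the filter, 34 in DESeq2 and 263 with the block, which also called 2 neighbours. In Clone 35, 0 genes became 4 without the filter, 1 in DESeq2 and 21 with the block, which called 1 neighbour, and in Clone 39 they became 2, 1 and 16. For the difference between clones, 0 genes became 6 without the filter and 1 with the block. For the replicate number, 6448 genes and 4 members became 2365 and 1 in DESeq2, and 2 members passed without the filter. In the co-movement, *PLBD1* passed without Clone 35 (r = 0.85). The cause of these shifts was not tested.

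Leaving out each library gave 66 to 151 genes with the 3 clones together (66, 69, 76 and 80 without Clone 28 DMSO replicate 4, dTAG-13 replicate 2, dTAG-13 replicate 1 and DMSO replicate 3), 2 to 29 in Clone 28 (29, 20, 5 and 2 without DMSO replicates 1 to 4 and 2, 3 and 4 without dTAG-13 replicates 1 to 3), 0 to 1 in Clone 39 (1 without DMSO replicate 3), 5585 to 6267 for the clone differences in DMSO with 5 to 7 members, 5596 to 6251 for the replicate number with 2 to 4 members (2 without Clone 28 replicate 1, Clone 35 replicate 1 or Clone 35 replicate 4), and, over pairs, 0 to 1 co-moving neighbour. It turned the direction of 15 estimates within clones, all near 0 and none past the threshold. Over the libraries left out, *H2AJ* ran from -0.0086 to 0.12 in Clone 28 and from -0.0058 to 0.091 in Clone 39. *WBP11* ran from -0.021 to 0.14 in Clone 35 and from -0.030 to 0.23 in Clone 39, and *SMCO3* from -0.30 to 0.065 in Clone 35. In Clone 39, *C12orf60* ran from -0.041 to 0.025, *ERP27* from -0.062 to 0.17 and *ARHGDIB* from -0.21 to 0.032. The block changed no other call among the neighbours, and none of the members' calls in the test of the difference between clones. For the clone differences in DMSO, the block was instead a term for the replicate number, shared by all clones. It treats a number as the same in every clone, and the same members passed with it. The treatment values of *ART4* are given with no test, with or without it. Few counts limit *GUCY2C*, *SMCO3*, *ARHGDIB*, *ERP27* and *PLBD1*.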
